A study of Mus musculus with 14 samples.

Results

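Metallothioneins are small proteins rich in cysteine that bind zinc and copper inside the cell, and Slc30a1 encodes ZnT1, the transporter that exports zinc across the plasma membrane. The genes described here are the mouse metallothionein genes Mt1, Mt2, Mt3 and Mt4 together with Slc30a1, 5 of the 18193 genes that have a named probe set on the array. They were chosen by name, as a family with its partner in zinc export. Earlier results of these data were known at that point, among them the large difference of Mt3 between acetate and control Th17 cultures, which is therefore given below as a description with no test. When free zinc rises in a cell it binds the transcription factor MTF1, which activates metallothionein genes and Slc30a1 through short metal response elements in their promoters, and the proteins then bind the zinc or carry it out. Mt1 and Mt2 are expressed in most tissues and respond to metals, glucocorticoids and oxidative stress, whereas Mt3 is best known from the brain and Mt4 from stratified epithelium. In T cells zinc enters after activation through importers of the SLC39 family.

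Expression was measured on Affymetrix arrays in CD4+ T cells taken from spleen and from peripheral and mesenteric lymph nodes of mice and cultured as Th17, Treg or Th1 cells, without or with acetate, a short chain fatty acid labelled C2. All cultures received human IL-2. Th17 cultures also received human TGF-b1, mouse IL-6, IL-1b, IL-23, IL-21 and TNF-a, and antibodies to IL-4 and IFN-gamma. Treg cultures received human TGF-b1, and Th1 cultures mouse IL-12 and an antibody to IL-4. The 14 arrays comprise 3 Th17 control, 3 Th17 acetate and 2 of each of the other 4 groups, and acetate was at 10 mM. Sodium acetate is named for all subsets in the design text, but acetone in the protocols of treated Treg and Th1 cells; both are called acetate below. Culture lasted 5 days by the protocols and 6 to 7 days by the design text. The labels used here do not state strain, sex or age of the mice. They also do not say whether replicate arrays are from different mice or cultures, and p-values therefore reflect a spread that may be technical.

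The deposited value is a signal intensity per probe set, a group of short probes against a transcript. The arrays differed in brightness, with trimmed means from 53.2 to 116.0, a 2.18-fold range with Th17 control replicate 1 the brightest, and the comparisons are therefore also given after quantile normalization, which gives every array the same distribution. The control probes for 18S ribosomal RNA also differed, with signals from 2809 to 4149 among Th17 arrays, from 506 to 3134 among Treg arrays and from 298 to 1576 among Th1 arrays, and their part in the differences between subsets was not tested. Across all 10916 genes tested the median log2 difference between acetate and control was -0.29, -0.13 and 0.23 in the Th17, Treg and Th1 comparison as deposited, and 0.01, 0.03 and 0.03 after quantile normalization. The labelled subsets were checked by their lineage genes. Il17a, the cytokine of Th17 cells, had mean signals of 866 in control and 4493 in acetate Th17 arrays and of at most 12.1 in the other groups. Foxp3, the Treg transcription factor, was highest in Treg control arrays at 303 and stood at 49.6 in Treg acetate arrays, below the 115.7 of Th17 control arrays. Tbx21, the Th1 transcription factor, was highest in the Th1 groups at 259.6 and 443. Among control groups, 5 of 5 Th17 markers on the array were highest in the Th17 group, but 2 of 8 Treg markers (Foxp3 and Ikzf2) in the Treg group and 3 of 7 Th1 markers (Tbx21, Ifng and Il12rb2) in the Th1 group. Il2ra, Nrp1 and Gpr83 were higher in Th17 than in Treg controls, and Cxcr3, Ccl5 and Eomes in Treg than in Th1 controls.

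The 5 genes were read by 7 probe sets, and each gene was represented by the set with the highest mean over the 14 arrays. Mt1 (1422557_s_at; the other set is 1451612_at) and Slc30a1 (1436164_at; the other set is 1422786_at) have 2 sets each. Mt2 (1428942_at), Mt3 (1420575_at) and Mt4 (1450645_at) have 1. The _s_at ending marks probes that can be shared between transcripts, and metallothionein coding sequences are much alike, so the signals of Mt1 and Mt2 may not be fully separate. All 5 genes passed the filter on low values, a mean log2(signal + 3) of 3.60. Mt4 passed through its Th1 acetate arrays, since its mean was 3.73 over the 14 arrays and 3.08 over the other 12.

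The 4 metallothionein genes lie next to each other on mouse chromosome 8 in the order Mt4, Mt3, Mt2, Mt1, with the noncoding gene Gm39227 between Mt3 and Mt2, and Slc30a1 lies on chromosome 1. RefSeq promoter windows of the GRCm38.p6 build, from 250 bases before to 50 bases after an annotated transcript start, were found for 5 of the 5 genes. Shown are those of Mt1 and Mt2, which moved together, and of Mt3, which was higher with acetate in every subset. That of Slc30a1, lower in every subset by its main probe set, is shown as well. MTF1 is known to act on genes of this family through metal response elements, but whether it acts on these windows was not tested. Capitals mark matches to the metal response element core, spelled TGCACNC or TGCGCNC on either strand.
Mt1, chr8:94178839-94179138, plus strand: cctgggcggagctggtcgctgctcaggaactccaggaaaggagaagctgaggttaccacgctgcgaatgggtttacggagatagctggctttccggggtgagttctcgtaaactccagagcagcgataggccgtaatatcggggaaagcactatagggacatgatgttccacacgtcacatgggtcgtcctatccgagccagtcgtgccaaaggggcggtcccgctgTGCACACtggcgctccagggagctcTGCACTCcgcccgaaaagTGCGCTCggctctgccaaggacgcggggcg
Mt2, chr8:94172368-94172667, plus strand: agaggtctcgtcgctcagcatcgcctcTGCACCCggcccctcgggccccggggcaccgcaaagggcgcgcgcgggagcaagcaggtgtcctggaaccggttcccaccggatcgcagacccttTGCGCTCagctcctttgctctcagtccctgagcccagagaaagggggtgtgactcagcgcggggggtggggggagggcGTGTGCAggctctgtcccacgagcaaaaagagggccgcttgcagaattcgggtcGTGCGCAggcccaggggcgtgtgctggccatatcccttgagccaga
Mt3, chr8:94152357-94152656, plus strand: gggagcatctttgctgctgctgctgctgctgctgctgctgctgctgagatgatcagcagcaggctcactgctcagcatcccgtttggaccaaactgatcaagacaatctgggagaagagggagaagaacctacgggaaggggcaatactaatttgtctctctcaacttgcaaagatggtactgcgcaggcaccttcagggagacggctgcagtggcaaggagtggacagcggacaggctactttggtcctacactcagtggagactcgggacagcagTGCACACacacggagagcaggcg
Slc30a1, chr1:191906531-191906830, plus strand: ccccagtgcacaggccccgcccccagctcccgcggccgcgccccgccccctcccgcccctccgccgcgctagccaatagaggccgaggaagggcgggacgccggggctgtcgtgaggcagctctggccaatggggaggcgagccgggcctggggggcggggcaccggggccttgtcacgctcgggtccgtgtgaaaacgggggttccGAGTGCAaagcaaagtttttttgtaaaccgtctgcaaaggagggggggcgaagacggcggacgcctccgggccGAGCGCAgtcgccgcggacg
The Mt1 window held 3 matches, and at least 3 were found in 1.97% of the 32851 RefSeq promoter windows of this length. The Mt2 window held 4, a count reached by 0.517% of windows. Slc30a1 held 2 matches, as 7.11% of windows did or exceeded. Mt3 and Mt4 held 1 each, and 25.7% of all windows held at least 1. The antioxidant response element core TGACNNNGC, searched on both strands, matched once in Mt2 and once in Slc30a1 (12.4% of windows held it), and the TATA box TATAAA, searched the same way, matched once in Mt4 (13.6% of windows). No match overlapped another kind of motif. These are letters in a fixed window around an annotated start, and for Mt1 and Slc30a1 that start lies inside the gene's annotated span. Elements outside the windows were not searched.

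**Figure D1:**
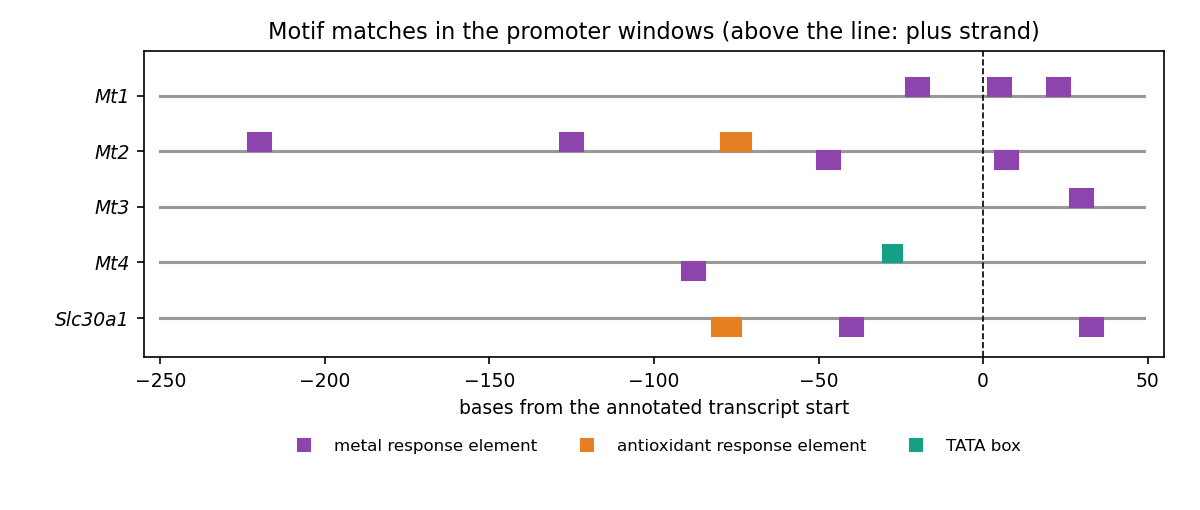
Matches to 3 short motifs in the RefSeq promoter windows of the 5 genes, by distance in bases from the annotated transcript start (dashed line). Boxes above a line are on the plus strand and boxes below on the minus strand. Mt2 holds 4 metal response element matches, Mt1 3, Slc30a1 2, and Mt3 and Mt4 1 each.

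Mt3, which encodes the metallothionein best known from neurons, had higher signals in every acetate array than in any control array of the same subset. In Th17 cultures its signals were 27.8, 2.16 and 7.48 in control replicates 1 to 3, and 501, 169 and 172 in acetate replicates 1 to 3. In Treg cultures they were 28.8 and 16.1 without acetate and 399.7 and 295 with it. In Th1 cultures they were 83.6 and 95.4 without acetate and 1492 and 3452 with it. The control arrays lay low, in Th17 cultures between the 21.0th and the 58.2nd percentile of all probe sets, and the acetate arrays of every subset lay above the highest control array of the series. Of all genes, 6.93% in the Th17, 21.8% in the Treg and 35.2% in the Th1 comparison had every acetate array above every control. The mean signal went from 12.5 ± 13.6 to 281 ± 191 in Th17 cultures (SD, n = 3), a 22.5-fold ratio of means. It went from 22.4 ± 8.97 to 347 ± 73.8 in Treg cultures and from 89.5 ± 8.32 to 2472 ± 1386 in Th1 cultures (SD, n = 2), ratios of 15.5 and 27.6. On the log2(signal + 3) scale, which understates the change of low signals, the difference in Th17 cultures was 4.38 ± 0.48 (SE), the second largest in size among 10916 genes.

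The members were chosen with earlier results of these data known, so the p-values of Mt3 below are not independent support. In the Treg and Th1 arrays Mt3 rose by 3.82 ± 0.59 (limma adjusted p = 4.9e-04; 0.0017 after quantile normalization) and by 4.62 ± 0.59 (7.5e-05; 0.0055). By size these ranked 7 and 4 of all genes tested. As background, 5.04% of genes passed the threshold of an adjusted p of 0.05 in the Treg comparison (2.31% higher and 2.73% lower) and 2.04% in the Th1 comparison (1.63% and 0.412%). After quantile normalization 12.5% passed in Treg (7.04% and 5.44%) and 3.98% in Th1 cultures (2.07% and 1.91%). Both calls held with every single array left out and under every other setting tried. These are RNAs of whole cultures, in which a change in the share of cells that make a transcript and a change per cell cannot be told apart.

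**Figure D2:**
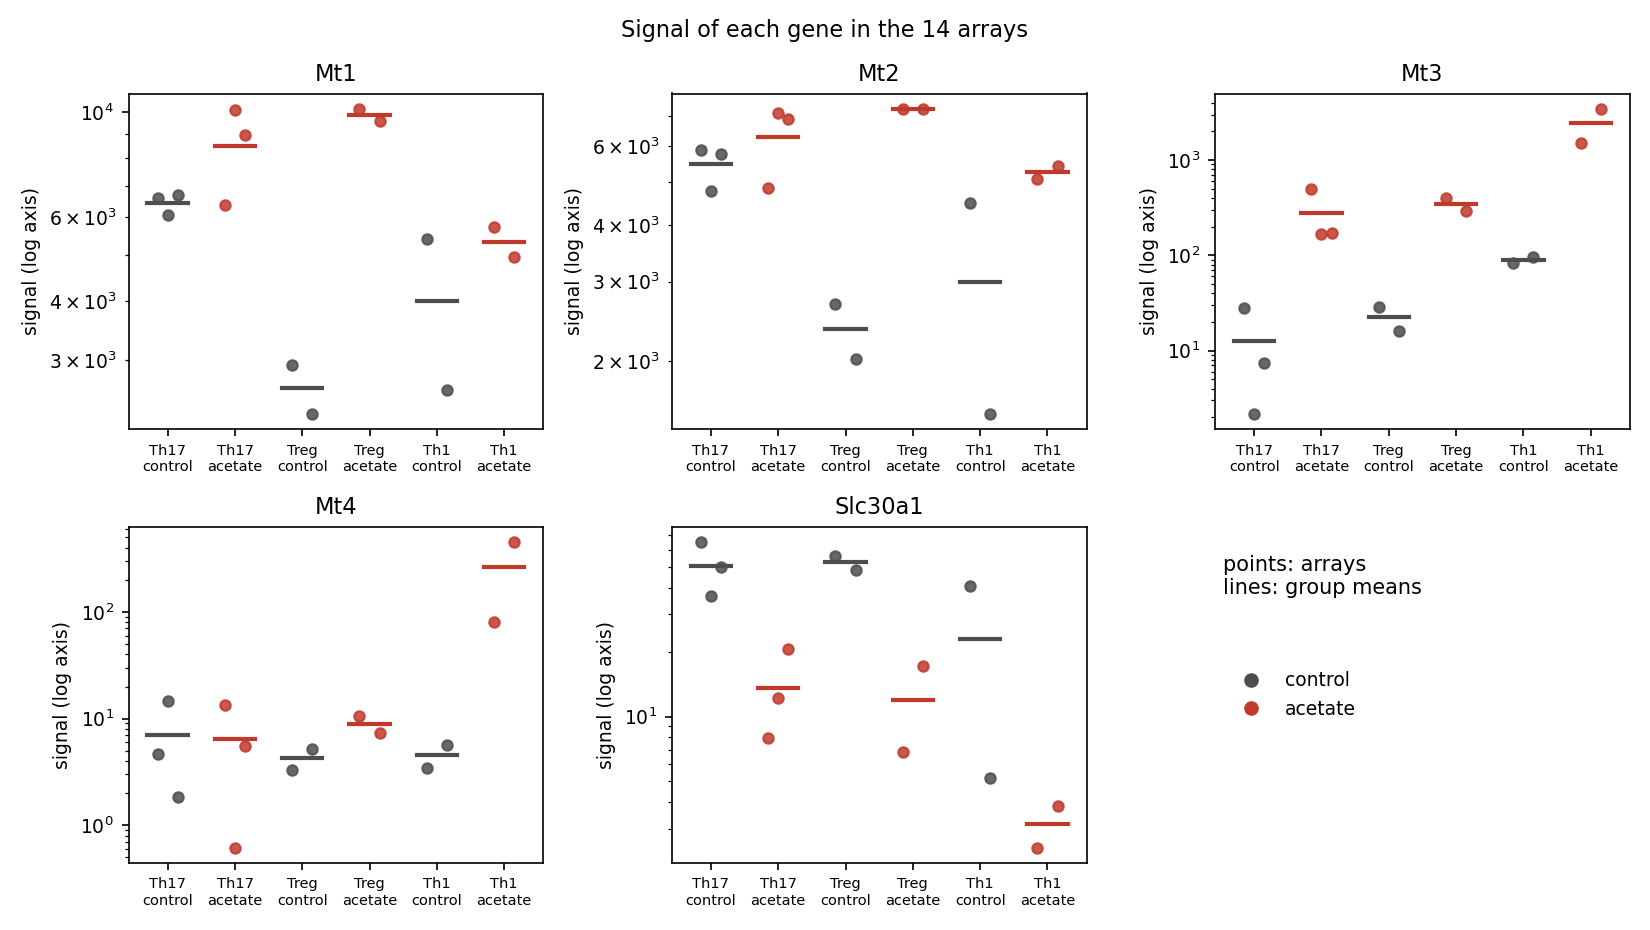
Signal of each gene in each of the 14 arrays on a log axis, with its own scale per gene, by subset and treatment; points are arrays and lines are group means. Mt3 is higher in all acetate arrays of a subset than in its controls, Mt4 is high in the 2 Th1 acetate arrays at 81.0 and 449.9, and Slc30a1 is lower in all acetate arrays of a subset than in its controls.

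Mt4, the metallothionein of stratified epithelium, was high in Th1 acetate arrays. Its signals there were 81.0 and 449.9, against 3.48 and 5.66 in Th1 control arrays. In Th17 cultures they were 4.62, 14.6 and 1.83 without acetate and 13.3, 0.62 and 5.53 with it, and in Treg cultures 3.33 and 5.15 without and 10.7 and 7.27 with it. The 12 other arrays thus lay between 0.62 and 14.6, most of them below the median of all values in the table, 10.8. Both Th1 acetate arrays lay above all 12, though they were far apart from each other. The difference in Th1 cultures was 4.70 ± 0.74 on the log2 scale, taken against controls so low that its size is uncertain. Mt4 passed the filter through these very arrays, so the test among filtered genes is not given as support. With no filter, over all 18193 genes, the limma adjusted p was 0.0023. With the 4 Th1 arrays alone in the fit it was 0.073, but over the filtered genes, which Mt4 joined through its Th1 acetate arrays. The difference was -0.12 ± 0.61 in Th17 (adjusted p = 0.91), where the sign turned with arrays scaled to the same trimmed mean (0.03), and 0.72 ± 0.74 in Treg cultures (0.68).

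Mt1 and Mt2, the metal-responsive pair found in most cells, were higher with acetate in Treg cultures. Mt1 signals there were 2927 and 2308 without acetate and 10169 and 9599 with it. Those of Mt2 were 2674 and 2023 without acetate and 7247 and 7257 with it. For both genes the Treg control arrays were among the lowest of the series and the Treg acetate arrays among the highest, with no overlap. Of all genes, 21.8% had every Treg acetate array above every Treg control, and 35.9% had every one below. Mt1 rose by 1.93 ± 0.29 (limma adjusted p = 3.9e-04; 7.9e-04 after quantile normalization) and Mt2 by 1.64 ± 0.33 (0.0045; 0.0055), about 3.80-fold and 3.12-fold. In this comparison 5.04% of genes passed, 2.31% higher and 2.73% lower, or 12.5% after quantile normalization, 7.04% and 5.44%. The Mt2 call was lost without Treg control replicate 2 (adjusted p = 0.086) or Treg acetate replicate 1 (0.060). The second Mt1 probe set, at 7.83 and 2.50 without and 34.8 and 28.5 with acetate, gave 2.16 ± 0.63 (adjusted p = 0.11 over 34945 probe sets).

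In Th17 cultures Mt1 signals were 6576, 6071 and 6682 without acetate and 6371, 10086 and 8946 with it, and Mt2 signals 5869, 4761 and 5763 against 4834, 7092 and 6885. In both genes acetate replicate 1 lay within the range of the controls. The differences were 0.37 ± 0.23 for Mt1 (95% interval -0.11 to 0.85, limma adjusted p = 0.28) and 0.18 ± 0.27 for Mt2 (-0.38 to 0.75, 0.68). In Th1 cultures Mt1 signals were 5398 and 2589 without and 5712 and 4956 with acetate, and Mt2 signals 4472 and 1524 against 5067 and 5429. In Mt1, Th1 control replicate 1 lay between the acetate arrays and replicate 2 below them. In Mt2, Th1 control replicate 2 was the lowest array of the series. Mt1 differed by 0.51 ± 0.29 (adjusted p = 0.38), a value that was -0.02 without Th1 control replicate 2. Mt2 differed by 1.01 ± 0.33 (0.12), and passed without Th1 control replicate 1 (1.78, 0.0019), while without replicate 2 the value was 0.23 (0.89).

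Slc30a1, the zinc exporter, was lower in every acetate array than in any control array of its subset, though from low signals. In Th17 cultures its signals were 65.1, 36.6 and 49.96 without acetate and 7.94, 12.2 and 20.7 with it. In Treg cultures they were 56.3 and 48.5 without and 6.85 and 17.2 with acetate. In Th1 cultures they were 40.9 and 5.17 without and 2.45 and 3.83 with acetate. Th1 control replicate 2 stood closer to the acetate arrays than to its fellow control. Arrays wholly below their controls were common among all genes, at 24.8%, 35.9% and 10.4% in the Th17, Treg and Th1 comparison.

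Slc30a1 fell by 1.73 ± 0.49 on the log2 scale in Th17 cultures (limma adjusted p = 0.019). There 17.7% of genes passed, 4.28% higher and 13.4% lower, or 20.3% after quantile normalization, 11.7% and 8.66%. The Slc30a1 call was lost after quantile normalization (adjusted p = 0.072), with arrays scaled to the same trimmed mean (0.064), and without Th17 control replicate 1 (0.11), Th17 control replicate 3 (0.055) or Th17 acetate replicate 1 (0.058). The Treg difference of -1.97 ± 0.60 (0.058) and the Th1 difference of -1.63 ± 0.60 (0.16) did not pass. Leaving out Th1 control replicate 2 gave a Th1 value of -2.85 (0.015), leaving out replicate 1 gave -0.42 (0.81), and the mean over both probe sets gave -0.11 (0.94). The Treg difference passed with any 1 Th1 array left out (0.015 to 0.025), without Th17 acetate replicate 1 (0.028) or 3 (0.043), and under 4 other settings (5.0e-06 with the Treg arrays alone, and 0.031 to 0.047).

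The second Slc30a1 probe set did not follow the first in Th1 cultures. Its signals there were 7.56 and 1.55 without acetate and 18.4 and 12.8 with it, so that both acetate arrays were higher. In Treg cultures it gave 9.04 and 27.7 without and 2.84 and 3.58 with acetate, so that both were lower, as with the first set. In Th17 cultures it gave 19.3, 10.2 and 16.9 without and 12.6, 3.71 and 6.62 with acetate, with overlap. Its Th17, Treg and Th1 differences of -0.85, -1.63 and 1.41 did not pass over 34945 probe sets (limma adjusted p = 0.36, 0.24 and 0.38). The direction of Slc30a1 in Th1 cultures therefore depended on the probe set read.

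**Figure D3:**
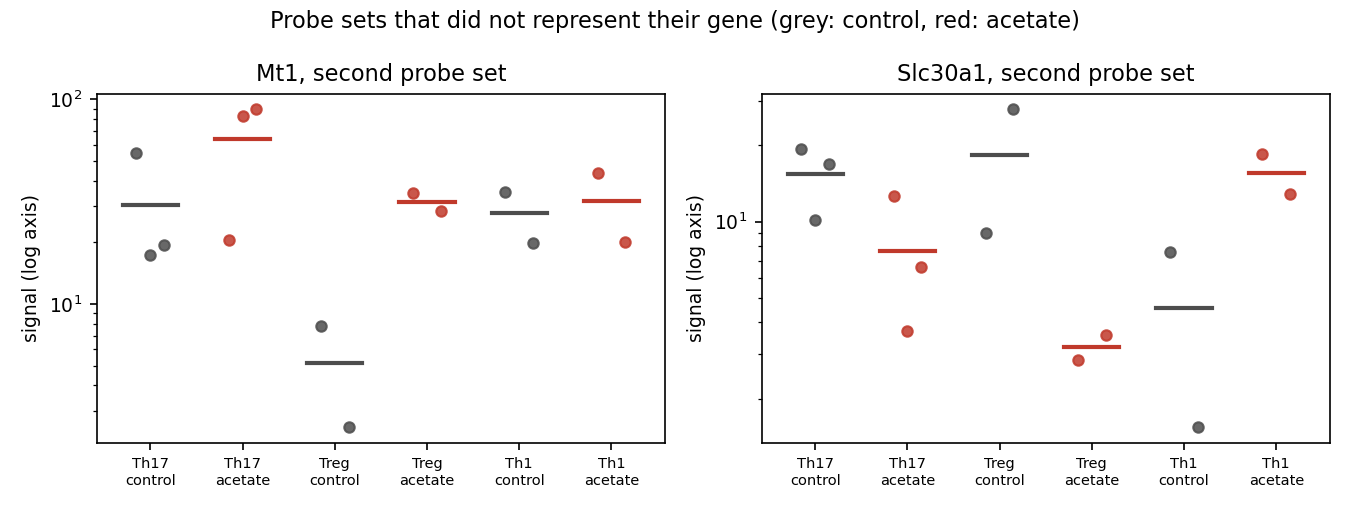
Signals on a log axis of the probe sets that were not used to represent Mt1 and Slc30a1, by subset and treatment; points are arrays and lines are group means. The second Slc30a1 set is lower with acetate in Treg cultures (2.84 and 3.58) and higher with acetate in Th1 cultures (18.4 and 12.8).

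The difference of acetate effects between the subsets was tested for each gene. For Mt4 the effect in Th17 minus that in Th1 cultures was -4.83 ± 0.96. With no filter on low values it did not pass (limma F test adjusted p = 0.081, pairwise 0.087). Among the filtered genes, which it joined through its Th1 acetate arrays, it was at 0.036 (0.705% of genes passed) and pairwise at 0.041 (0.101%), and after quantile normalization at 0.11 (0.797%) and 0.12 (0.0366%). The F test of Mt4 among filtered genes also missed the threshold without Th1 acetate replicate 2 (0.17), Th1 control replicate 2 (0.054), Th17 control replicate 1 (0.12) or replicate 2 (0.075), Treg control replicate 2 (0.099) or Treg acetate replicate 1 (0.066). The larger rise of Mt1 in Treg than in Th17 cultures, a difference of 1.56 on the log2 scale, missed the threshold (F test 0.061; pairwise 0.066, where 0.348% of genes passed), and its F test passed without Th17 acetate replicate 1 (0.039) and without any 1 of the 4 Th1 arrays (0.012 to 0.032). Neither Mt2 (0.19) nor Slc30a1 (0.97) passed. For Mt3 the effect in Treg minus that in Th1 cultures was -0.81, with a 95% interval of -2.52 to 0.91. A difference of several-fold between these subsets was therefore not excluded by these arrays.

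**Figure D4:**
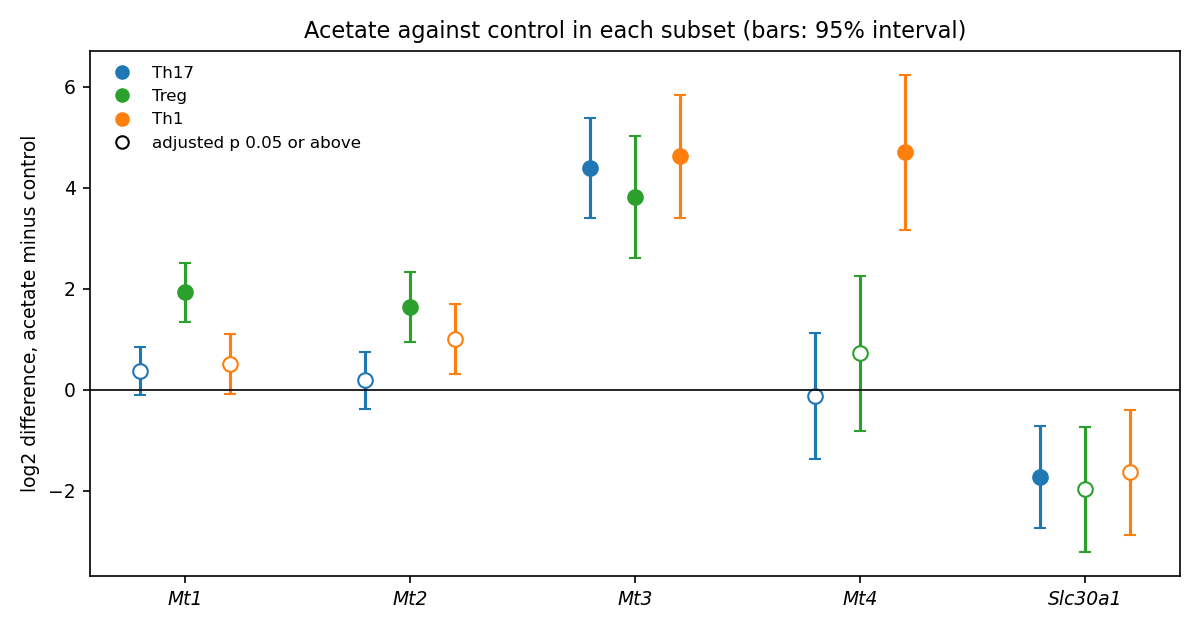
Log2 difference of acetate minus control arrays for each gene and subset, with 95% intervals; filled points have a limma adjusted p under 0.05. Mt3 lies between 3.82 and 4.62 in all 3 subsets, Mt4 at 4.70 in Th1 cultures (tested there through the arrays in which it is high), and Slc30a1 between -1.97 and -1.63. The Th17 difference of Mt3 was known when the genes were chosen, so its filled points are not independent support.

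Without acetate, Mt3 signals were higher in both Th1 arrays than in any Treg or Th17 array. Its group means ran from 2472 in Th1 acetate to 347 in Treg acetate, 281 in Th17 acetate, 89.5 in Th1 control, 22.4 in Treg control and 12.5 in Th17 control arrays. In that order the Treg and Th17 acetate groups overlapped, and so did the Treg and Th17 control groups. The other neighbours did not. The Th17 minus Th1 difference was -2.96 ± 0.54 on the log2 scale and the Th17 minus Treg difference -1.05. Both use the Th17 control arrays of the difference known beforehand and are given with no test. The Treg minus Th1 difference of -1.91 did not pass (limma adjusted p = 0.093). These comparisons use the same control arrays as those of acetate.

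Mt1 was 0.78 ± 0.26 and Mt2 1.06 ± 0.30 higher in Th17 than in Th1 control arrays (limma adjusted p = 0.032 and 0.018), and Slc30a1 1.46 ± 0.55 higher (0.049). In this comparison 27.7% of genes passed, 26.6% higher in Th17 cultures and 1.09% lower, against 6.6% after quantile normalization, 2.99% and 3.62%. The 3 genes did not pass after quantile normalization (0.19, 0.13 and 0.38) nor without Th1 control replicate 2 (0.54, 0.51 and 0.77) nor without Th17 control replicate 1 (0.10, 0.086 and 0.19). Mt1 and Slc30a1 also missed it without Th17 control replicate 3 (0.077 and 0.093), and Slc30a1 without any 1 of the 4 Treg arrays (0.051 to 0.061). Against Treg control arrays, Th17 control arrays were 1.31 ± 0.26 higher in Mt1 (0.0016; 0.012 after quantile normalization) and 1.22 ± 0.30 higher in Mt2 (0.0094; 0.051). There 14.2% of genes passed, 12.2% higher and 2.09% lower, or 11.3% after quantile normalization, 5.31% and 6.01%. Without Treg control replicate 2 neither passed (0.074 and 0.20), nor Mt2 without Th17 control replicate 1 (0.059). None of the 5 genes passed in limma in Treg against Th1 control arrays (unadjusted p of 0.0035 for Mt3 and 0.017 for Slc30a1), where 2.44% of genes did, 1.87% higher in Treg cultures and 0.568% lower (4.99%, 2.85% and 2.14% after quantile normalization). In mean signal Mt1 ran from 9884 in Treg acetate to 2617 in Treg control arrays, and Mt2 from 7252 to 2349 between the same groups.

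Of the other zinc genes, the importer gene Slc39a14 rose with acetate, and most members of both transporter families did not pass. Of 10 exporter genes of the SLC30 family 8 were tested, and Slc30a1 in Th17 cultures was the 1 that passed in any acetate comparison (after quantile normalization it was Slc30a7, higher in Th17 cultures, adjusted p = 0.047). The median log2 difference of the 8 was -0.56, 0.05 and 0.36 in the Th17, Treg and Th1 comparison, beside -0.29, -0.13 and 0.23 for all genes. Of 14 importer genes of the SLC39 family 11 were tested, of which 1 rose and 2 fell in Th17 cultures, 1 rose in Treg cultures and none passed in Th1 cultures (1 at an unadjusted p under 0.05; 0 after quantile normalization as well), beside 17.7%, 5.04% and 2.04% of all genes in the Th17, Treg and Th1 comparison. Slc39a14, which encodes ZIP14, an importer of zinc and iron, had mean signals of 278 and 549 in Th17, 88.8 and 259 in Treg and 145 and 314 in Th1 control and acetate arrays. It rose by 0.99 ± 0.27 in Th17 (limma adjusted p = 0.015) and 1.53 ± 0.33 in Treg cultures (0.0068), and differed by 1.11 ± 0.33 in Th1 cultures (0.081). The Th17 call was lost without Th17 control replicate 3 (0.065) or acetate replicate 2 (0.077). The Treg call was lost without control replicate 2 (0.12) or acetate replicate 1 (0.13). Both were lost with the mean over its probe sets (0.092 and 0.086). Slc39a8, which encodes the importer ZIP8, fell by 2.04 ± 0.37 in Th17 cultures (7.2e-04), from a mean signal of 226 to 57.2, and held in every setting. Slc39a3 fell there by 1.24 ± 0.32 (0.011), a call lost without Th17 control replicate 1 (0.067) or acetate replicate 2 (0.054). Mtf1, the zinc-sensing factor, differed by -0.02 ± 0.29, -0.09 ± 0.36 and 0.14 ± 0.36 in Th17, Treg and Th1 cultures and did not pass (0.98, 0.93 and 0.88).

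**Figure D5:**
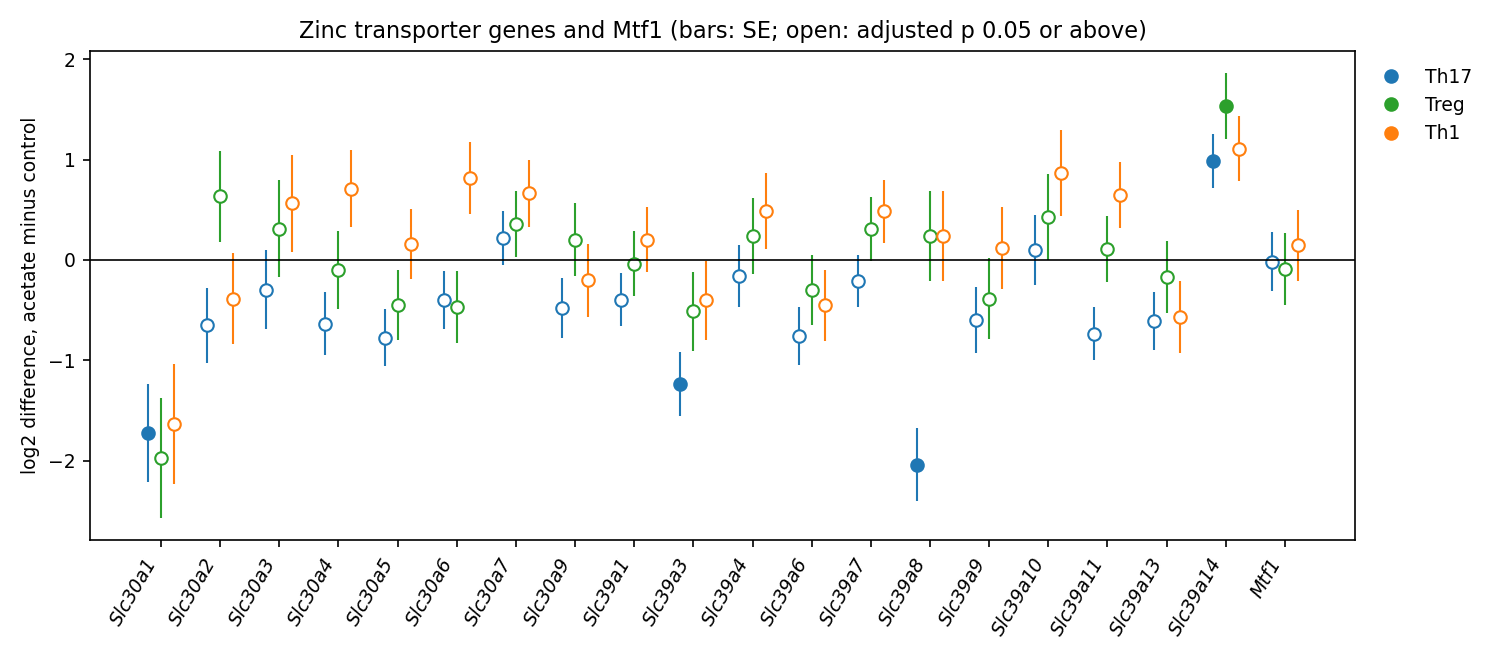
Log2 difference of acetate minus control arrays for the 8 exporter and 11 importer genes tested and Mtf1, in Th17, Treg and Th1 cultures, with standard errors; filled points have a limma adjusted p under 0.05. Filled points are Slc30a1, Slc39a3 and Slc39a8 (lower) and Slc39a14 (higher) in Th17 cultures and Slc39a14 in Treg cultures.

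Metallothionein genes are also known targets of oxidant stress and of glucocorticoids, and lists of both kinds were examined. Of 11 oxidant and heavy metal response genes tested, 3, 0 (4 at an unadjusted p under 0.05) and 2 passed in the Th17, Treg and Th1 comparison, beside 17.7%, 5.04% and 2.04% of all genes. Gclc and Gclm, the subunits of the enzyme that limits glutathione synthesis, fell in Th17 cultures by 1.26 ± 0.30 and 1.15 ± 0.27 (limma adjusted p = 0.0067 and 0.0054), and the call of Gclm was lost with the mean over its probe sets (0.061). The heat shock gene Hspa1b was higher in Th17 cultures by 1.32 ± 0.44 (0.042) and in Th1 cultures by 2.11 ± 0.54 (0.043; 0.063 after quantile normalization). In Treg cultures it differed by 1.76 ± 0.54, which did not pass as deposited (limma adjusted p = 0.063) but did after quantile normalization (0.035). The thioredoxin reductase gene Txnrd1 was higher in Th1 cultures by 1.39 ± 0.35 (0.037; 0.038 after quantile normalization), but not with the mean over its probe sets (0.23). In Treg cultures 3 of the 11 passed after quantile normalization, where 12.5% of genes did. The haem oxygenase gene Hmox1, another stress-responsive gene, differed by -0.18, 0.80 and 1.10 in Th17, Treg and Th1 cultures and did not pass as deposited (0.71, 0.22 and 0.11), but passed in Treg cultures after quantile normalization (0.020). The Hspa1b call in Th17 cultures was lost without any 1 of the 6 Th17 arrays (0.060 to 0.12), and in Th1 cultures without Th17 control replicate 1 or 2, either Th1 control replicate or Th1 acetate replicate 2 (0.058 to 0.26). The Txnrd1 call was lost without Th17 control replicate 3, either Treg acetate or Th1 control replicate or Th1 acetate replicate 2 (0.051 to 0.27).

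The 7 glucocorticoid genes tested did not share a direction. Those that passed were 2, 1 and 1 in the Th17, Treg and Th1 comparison, each lower, beside 17.7%, 5.04% and 2.04% of all genes. Nr3c1, the glucocorticoid receptor gene, was lower by 0.87, 1.59 and 1.40 in the Th17, Treg and Th1 comparison (limma adjusted p = 0.040, 0.0093 and 0.040; 0.068, 0.0019 and 0.0059 after quantile normalization). Averaged over its probe sets it did not pass in any of them (0.10, 0.44 and 0.79). Its Treg call was also lost without Treg control replicate 1 (0.19) or either acetate replicate (0.16 and 0.054), its Th17 call without Th17 control replicate 1 or 3, Th17 acetate replicate 1 or 2 or either Treg acetate replicate (0.055 to 0.15), and its Th1 call without Th17 control replicate 3, either Treg acetate or Th1 control replicate or Th1 acetate replicate 2 (0.057 to 0.30). Sgk1, a kinase gene induced by glucocorticoids, was 1.31 lower in Th17 cultures (0.027), a call lost after quantile normalization (0.12), with trimmed-mean scaling (0.13) and without any 1 Th17 control replicate or Th17 acetate replicate 1 or 2 (0.052 to 0.14). Its differences in Treg and Th1 cultures were 1.46 (0.090) and 1.40 (0.14), and the F test of the difference between subsets gave 0.036, or 0.13 after quantile normalization. Fkbp5, another target, differed by 0.79, 1.11 and 1.27 in the Th17, Treg and Th1 comparison (0.054, 0.064 and 0.054) and was higher in each after quantile normalization (0.0010, 0.0033 and 0.031).

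The genes that flank the metallothionein cluster were read as well. Of the 4 tested (Nudt21, Ogfod1, Bbs2 and Nup93) none passed in an acetate comparison in limma. Of all genes, 17.7%, 5.04% and 2.04% did in the Th17, Treg and Th1 comparison, and 4 genes are too few to set against these shares. At an unadjusted p under 0.05 there were 0, 0 and 2, with differences from -0.10 to 1.33. Ogfod1 passed after quantile normalization in Th17 (limma adjusted p = 0.016) and Treg cultures (0.022), where 20.3% and 12.5% of genes did.

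Marker lists of other cells moved with acetate too. The summed signal of 6 T cell markers was lower with acetate in each subset, at 10026 to 17294 against 5677 to 9862 in Th17, 11958 to 12753 against 7596 to 8381 in Treg, and 10313 to 11701 against 6979 to 8891 in Th1 cultures. That of 5 B cell markers was 845 to 2195 against 286 to 877 in Th17, 2191 to 2288 against 812 to 1468 in Treg, and 492 to 568 against 101 to 121 in Th1 cultures. Most of it was Ighm, while Cd79a, Ms4a1 and Pax5 had group means of at most 12.5. In Th1 cultures the sum of 3 NK cell markers went from 358 to 382 without acetate to 1307 to 1709 with it. The 7 macrophage and dendritic cell markers summed to 80.5 to 216 over all arrays. Of the 4 of them tested, 1 passed in Th17 cultures, where 17.7% of all genes did. Their median log2 difference there was -0.55, beside -0.29 for all genes. The 1 that passed was Cd68, higher by 1.83 (limma adjusted p = 0.0045), from a mean signal of 24.2 to 94.5. The 2 CD8 markers summed to 31.6 to 325 and 4 mast cell and basophil markers to 11.2 to 147, the latter lower with acetate in Th17 cultures (77.5 to 147 against 23.2 to 55.7). Cd8b1 rose in Th17 cultures by 1.45 (0.0066), from 57.0 to 150.3. The part of these shifts in the differences of the metallothionein genes was not tested.

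Over the 14 arrays Mt1 and Mt2 ran in parallel, with Pearson r = 0.94 and Spearman rho = 0.92 after quantile normalization, and 0 of 10911 other genes were more strongly correlated with Mt1 than Mt2 was. Mt3 ran against Slc30a1, read by its main probe set (r = -0.83, rho = -0.78), and its r with Mt1 was 0.29 and with Mt4 0.68. Of 10911 other genes, 486 were more strongly correlated with Mt3, in either direction, than Slc30a1 was. For Mt4 that number was 2049. The genes most like Mt3 were Tspan31 (r = 0.96), Swi5, Crabp2, Gnpda1 and Pradc1, and those most like Mt4 were Sec63 (0.91), Dnm3, Ctbp2, Nqo2 and Lman1. Those most like Mt1 were Ogfod3 (0.90), D10Wsu102e, Rnf126, Cela1 and Tle6, and those most like Mt2 were Thoc6 (0.91), Ddx54, Ssbp4, D10Wsu102e and Nol12. With Spearman's rho in place of r, 2, 1, 2 and 0 of these 5 genes stayed among the first 5 for Mt3, Mt4, Mt1 and Mt2. With r on the signals as deposited, 1, 2, 2 and 1 stayed, and Tspan31 came 133rd for Mt3 (0.79) and Sec63 184th for Mt4 (0.60). The values of Mt4 include the Th1 acetate arrays through which it passed the filter. The arrays fall into 6 groups and share their controls, so these values describe these arrays and no test was made.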

How the data were processed

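Per the submitters' processing notes, MAS5 made the deposited values, signal intensities on a linear scale with 1 per probe set and array. No version or scaling target is named in the sources used here. Detection calls were not used, so no signal was tested against background, and precision is limited by how few arrays there are. In the platform annotation 34945 of 45101 probe sets have a single symbol, 932 have several and 9224 have none, and those with several or none were left out. The RefSeq gene table matched 34741 of them by Entrez identifier, with 0 symbols changed. The members and gene lists were chosen with earlier results of these data known.

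Values were taken as log2(signal + 3), and a gene's probe set with the highest mean over the 14 arrays stood for it. Tests covered the 10916 of 18193 genes whose mean reached the 40th percentile, 3.60 or a signal of 9.10. A single limma fit (version 3.58.1, R 4.3.3) held all arrays and estimated 6 group means without covariates, with 8 residual degrees of freedom and a trended eBayes. Adjusted p-values follow Benjamini and Hochberg over all genes tested, calls are made under 0.05, and intervals are at 95%. Leaving out an array of a pair assumes that the remaining one varies as the other groups do. The arrays turned out to differ in brightness. The signals as deposited nevertheless remained the reported values, as planned, with quantile normalization beside them. The fit was tested on simulated data.

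Genes named were the 5 members with all probe sets, Mtf1, up to 4 called genes of each metal or stress list per acetate comparison, the 5 genes most correlated with each metallothionein gene, the genes flanking the cluster, and lineage genes. Hmox1, Fth1, Fkbp5, Commd1, Slc30a7 and the markers named singly were picked after their values were seen. No label gives a scan date or batch, and a batch aligned with a group cannot be told apart from that group. Replicate numbers recur across treatments, but arrays with the same number did not deviate together (correlations of 0.13, 0.14 and -0.07 for the Th17, 0.06 for the Treg and -0.18 for the Th1 numbers), so no pairing was used.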

Additional observations from a re-analysis of the deposited data

Results flagged for a closer look

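The acetate effect of Mt4 differed between subsets by the limma F test among filtered genes (adjusted p = 0.036), which Mt4 joined through its Th1 acetate arrays (mean log2 of 3.08 without them, under the 3.60 required). It did not pass with no filter (0.081) or after quantile normalization (0.11), nor without any 1 of 6 arrays (0.054 to 0.17). The effect of Mt4 in Th17 minus that in Th1 cultures was -4.83 on the log2 scale. Mt4 signals in Th1 acetate arrays were 81.0 and 449.9, and no other array exceeded 14.6. The second probe set of Slc30a1 moved in opposite directions in the subsets: both Treg acetate arrays were lower than both controls (-1.63) and both Th1 acetate arrays were higher (1.41). The difference between these effects was -3.04 ± 0.85 (limma adjusted p = 0.33 over all probe sets), so it did not pass. Groups of 2 and 3 arrays are too small to look for single outlying arrays.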

How the results depend on the processing

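Depth is not known for arrays, and low signals limit Mt4, Slc30a1 and the controls of Mt3. The calls of Mt1 in Treg cultures and of Mt3 in Treg and Th1 cultures passed in every setting run and with any 1 array left out. Of all genes, 17.7%, 5.04% and 2.04% passed in the Th17, Treg and Th1 comparison (20.3%, 12.5% and 3.98% after quantile normalization). Untreated, 27.7% passed in Th17 against Th1, 14.2% in Th17 against Treg and 2.44% in Treg against Th1 (6.6%, 11.3% and 4.99%). In the F test 0.705% passed (0.797%). Shares in the other settings and with 1 array left out are not given. The number of the 5 genes that passed in Th17 cultures was 2, of which Mt3 is only described above, and 1 after quantile normalization, with arrays scaled to the same trimmed mean or with a filter at the 60th percentile. In Th1 cultures it was 2, of which Mt4 was tested through the arrays in which it is high, and 1 with the 60th percentile filter, which removed Mt4, or with only the groups compared in the fit. In Treg cultures it was 3, and 3 to 4 elsewhere. Between untreated Th17 and Th1 cultures it was 4, with Mt3 again only described, and 1 after quantile normalization, trimmed-mean scaling or without the trend, and 2 without a filter. Between untreated Th17 and Treg cultures it was 2, 1 after quantile normalization and 0 with trimmed-mean scaling. Between untreated Treg and Th1 cultures it was 0, and 2 with only the groups compared. The F test between subsets called Mt4, 1 gene, and 0 after quantile normalization, trimmed-mean scaling, with a pseudocount of 1, without a filter or without the trend, and 2 with a pseudocount at the 50th percentile.

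With the replicate block the count was 2 between untreated Th17 and Th1 cultures and 2 in the F test, and Slc30a1 passed in Treg cultures (limma adjusted p = 0.034). Whether the replicate numbers pair the arrays is not settled. With the Th1 numbers crossed, an alternative added after seeing the data, 2 of the 5 genes passed in Th1 cultures. The metal and stress lists were rerun under the alternatives after their calls were seen.

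With 1 array left out the counts ran from 1 to 2 in Th17, 2 to 4 in Treg and 2 to 3 in Th1 cultures, from 1 to 4 and from 0 to 2 for untreated Th17 against Th1 and Treg, from 0 to 1 for untreated Treg against Th1, and from 0 to 3 for the F test.

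No reversed value passed the threshold. For the acetate effect in Th17 minus that in Th1 cultures, quantile normalization gave 0.19 (Mt1), 0.26 (Mt3) and 0.31 (Slc30a1), trimmed-mean scaling 0.45, 0.29 and 0.43, a pseudocount of 1 gave 0.090 (Mt3) and 0.10 (Slc30a1), and the mean over probe sets 0.33 (Mt1). Trimmed-mean scaling also reversed Mt4 with acetate in Th17 cultures (0.033) and in untreated Th17 against Th1 cultures (-0.16). With 1 array left out, the effects in Th17 minus Th1 cultures ran from -0.67 to 0.39 for Mt1, -0.84 to 0.45 for Mt3 and -1.31 to 1.12 for Slc30a1, and those in Th17 minus Treg cultures from -0.031 to 1.26 for Mt3 and -0.27 to 0.76 for Slc30a1. In Treg minus Th1 cultures they ran from -0.14 to 1.41 for Mt2 and -1.55 to 0.88 for Slc30a1. The acetate difference ran from -0.64 to 0.44 for Mt4 in Th17 and -0.021 to 1.04 for Mt1 in Th1 cultures. Untreated Th17 against Th1 gave -0.30 to 0.63 for Mt4, and Th17 against Treg gave -0.24 to 0.69 for Mt4 and -0.27 to 0.12 for Slc30a1. Untreated Treg against Th1 gave -1.05 to 0.0057 for Mt1, -0.94 to 0.61 for Mt2 and -0.27 to 0.15 for Mt4. The cause of these changes was not tested.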

Other observations

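Copper and iron genes, whose proteins share ligands and carriers with those of zinc, were read from the same lists. Of 9 copper genes tested, 1 passed in Th17 cultures, where 17.7% of all genes did: Ccs, the copper chaperone of superoxide dismutase, fell by 1.17 ± 0.26 (limma adjusted p = 0.0039), from a mean signal of 915 to 400.2, and held in every setting run. None passed in Treg or Th1 cultures as deposited (3 each at an unadjusted p under 0.05), where Ccs differed by -0.75 (0.20) and -0.23 (0.76). After quantile normalization 3 copper genes were higher and 1 lower in Th17 cultures, 2 and 1 in Treg, and 1 and 0 in Th1 cultures, and Commd1 was among the higher genes in each (0.00084, 0.0034 and 0.029); the shares of all genes were 20.3%, 12.5% and 3.98%. Of 7 iron genes tested, 1 passed in Th17, 0 in Treg (3 at an unadjusted p under 0.05) and 1 in Th1 cultures, beside 17.7%, 5.04% and 2.04% of all genes. Tfr2, a transferrin receptor, rose by 1.25 ± 0.32 in Th17 cultures (0.010), from 23.1 to 59.1, a call lost without Th17 control replicate 3 (0.059) or acetate replicate 2 (0.058). Tfrc, the main transferrin receptor, rose by 1.19 ± 0.31 in Th1 cultures (0.043), from 314 to 725, and that call was lost without Th17 control replicate 3, any 1 Treg array, Th1 control replicate 2 or Th1 acetate replicate 2 (0.058 to 0.35), or with the mean over its probe sets (0.23). Fth1, the ferritin heavy chain, had mean signals of 6284 and 6220 in Th17, 3429 and 5361 in Treg and 3304 and 5647 in Th1 control and acetate arrays, and did not pass as deposited (0.99, 0.12 and 0.091), but was higher after quantile normalization in Treg (0.0072) and Th1 cultures (0.029).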
